A study of Mus musculus with 6 samples.

Results

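The Rab GTPases of the mouse cerebral cortex were described from 6 RNA sequencing libraries, 3 labelled Fam69c KO and 3 labelled WT. The family was taken as every protein-coding row of the table whose symbol is Rab, a number and at most a letter from a to d with a further digit, which gave 59 genes of 54532. Effectors, Rab-like genes and pseudogenes with Rab in their names are not members. The first group carries the genotype label Fam69c KO and the other the label WT, and mice of both were 12 months old. The labels give no strain, sex, treatment or design of the KO allele. Nothing in them ties a library to its own animal, and p-values below therefore reflect only how far these libraries vary.

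Values are FPKM, reads scaled to gene length and library depth, as the authors deposited them. Beside length and the summed reads of the table, they carry a further factor per library of 1.0063, 0.9916 and 0.979 in the libraries labelled KO, against 1.0119, 1.008 and 0.9861 in WT, whose origin is not given in the sources used here. The reads behind them numbered 34112858, 33068481 and 35065884 in the libraries labelled KO and 31612849, 30935326 and 32707769 in WT. Fam69c itself, on chromosome 18, read 1.54, 1.84 and 1.42 FPKM in the libraries labelled KO, against 2.03, 1.57 and 2.08 FPKM in WT. The groups overlapped (log2 fold change -0.19, 95% interval -0.49 to 0.11), and the RNA level is therefore no check of the genotypes, so differences below are between libraries as labelled. In GENCODE M21 the exons of Fam69c, 5466 bases in all, share 1338 bases with D030046N08Rik on the other strand. The deposited values use a length of 2662 bases for Fam69c, so the overlap in the counted model is uncertain. All 10 marker genes of striatal projection neurons were above 0 in every library. Their summed level was 249, 465 and 402 FPKM in the libraries labelled KO, against 501, 514 and 188 FPKM in WT, so KO replicate 1 and WT replicate 3 stood apart from the others. The 6 neuronal markers summed to between 983 and 1105 FPKM in the libraries labelled KO and between 1030 and 1056 FPKM in WT. The 5 markers of choroid plexus, all above 0 in every library, summed to 10.2, 9.14 and 4.67 FPKM in the libraries labelled KO, against 3.52, 4.62 and 3.73 FPKM in WT. These groups did not overlap, but only by 4.67 against 4.62 FPKM, and 1 of the 5 markers reached a mean of 0.5 FPKM. The part of choroid plexus in the differences below was not tested.

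Rab proteins are small GTPases that mark membranes for traffic. Loaded with GTP by an exchange factor, a Rab recruits effectors such as motors, tethers and coat adaptors. A GTPase-activating protein ends the signal, and a GDP dissociation inhibitor (GDI) draws the inactive Rab off the membrane. Most Rabs are held in the membrane by lipid tails that a geranylgeranyl transferase adds to cysteines at the C terminus. In neurons Rabs are best known for the synaptic vesicle cycle, axonal transport and the endosomal handling of receptors.

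The ends of the coding sequences are shown because they hold the C-terminal cysteine codons, whose number and spacing differ between members. Each line gives the last 30 coding bases before the stop codon in GENCODE M21 (mm10), 5′ to 3′ on the strand of the gene, with cysteine codons in capitals.
Rab3a: caggcgccacctcatcaggatTGTgccTGC
Rab6b: cccccggccagcgagggcggcTGCtccTGT
Rab6a: caaccagtcaatgaaggcggcTGTtccTGC
Rab7: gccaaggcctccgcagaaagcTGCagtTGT
Rab33a: gaggctaacggtaaagcctccTGTcctTGT
Rab33b: gagaccaagcctgcggtgactTGCtggTGC
Rab1a: ccagtcaagcagtcaggtggaggcTGCTGC
Rab1b: cctgtgaagcctgctagcggtggcTGCTGC
Rab2a: ggcggacagcaggcagggggaggcTGCTGT
Rab9b: agtggctccaaagcaagttcttctTGTTGT
Rab8a: aggaccagcttcttccggTGCagtctcctg
Rab13: gacaagaagaagaacaagTGCttgttaggc
Rab23: agaaaccctttcagcagcTGTagtgtaccc
Rab40b: aacTGTgccaggaacagcTGCaaaatttct
In the Rab3, Rab6, Rab7 and Rab33 examples another codon stands between the cysteine codons, while in Rab1a, Rab1b, Rab2a and Rab9b they adjoin at the very end. Of the 59 members, 54 had at least 2 cysteine codons among the last 10 and 5 had 1. Those 5 were Rab8a, Rab8b, Rab13, Rab23 and Rab28. The coding sequences had a median of 645 bases, and ran up to 2175 bases in Rab44. Close relatives were still well apart in sequence: Rab6a and Rab6b were 78.4% identical over the aligned coding bases, Rab1a and Rab1b 76.1%, Rab3a and Rab3b 75.9%, and Rab33a and Rab33b 63.1%.

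The family was strongly expressed and spread over a wide range. Its 59 members summed to 1790, 1693 and 1629 FPKM in the libraries labelled KO, against 1764, 1759 and 1671 FPKM in WT. KO replicate 1 held the highest sum and KO replicate 3 the lowest, with the WT libraries between them. The sum was 0.653%, 0.641% and 0.634% of all FPKM in the libraries labelled KO and 0.646%, 0.641% and 0.644% in WT. The median member had a mean of 10.2 FPKM, while the median of the 22046 protein-coding rows was 1.49 FPKM. Of the members, 18 lay in the top 10% of protein-coding rows. The 5 most abundant made up 51.9% of the family's FPKM and the 12 most abundant 74.04%. A mean of at least 0.5 FPKM, the limit for testing, was reached by 50 members, and 9 lay below it. These are bulk samples, in which fewer cells of a type and less RNA per cell cannot be told apart.

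**Figure D1:**
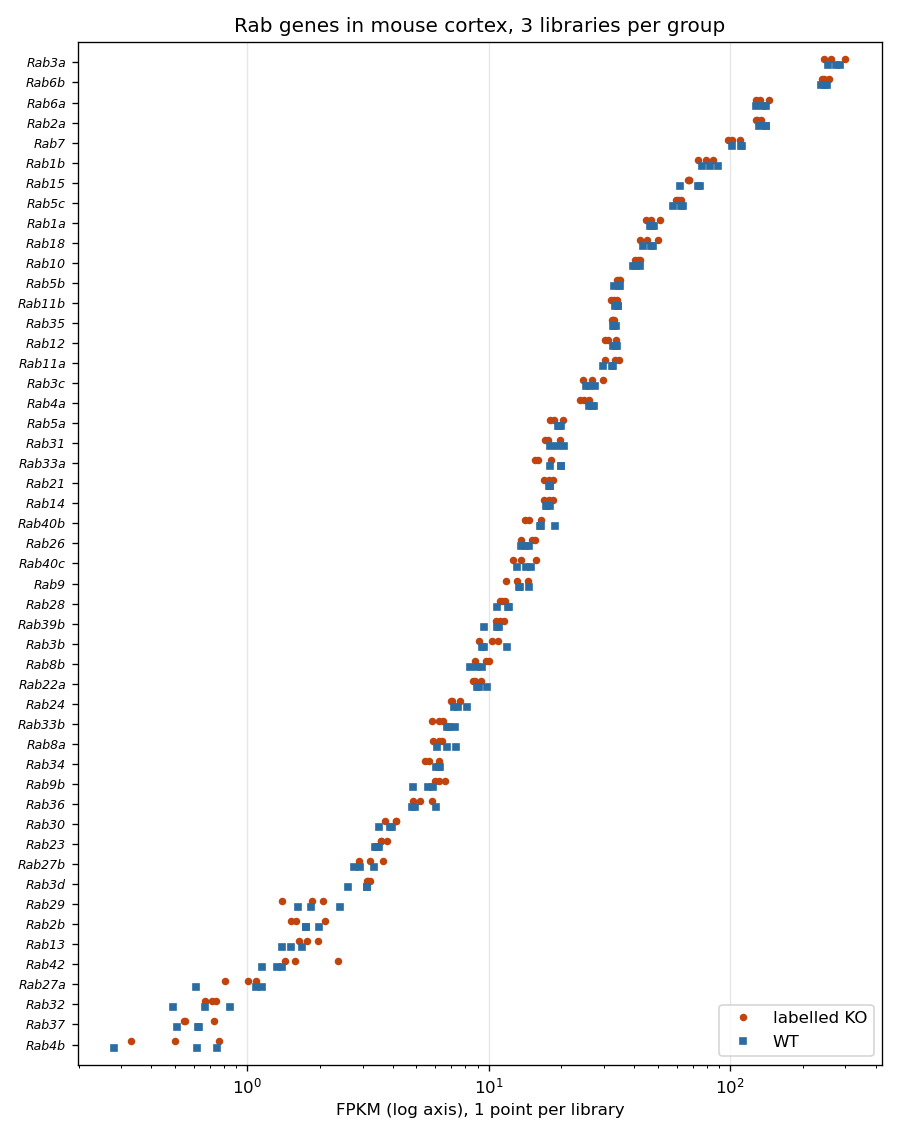
FPKM of the 50 Rab genes tested, ordered by mean, on a log axis, with 1 point per library (circles, libraries labelled KO; squares, WT). Rab3a and Rab6b stand at the top with means of 270.5 and 246.0 FPKM over all libraries, and the points of both groups lie on each other for nearly every gene.

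Genes of regulated secretion and synaptic vesicles, 8 in all, made up 19.2% of the family's FPKM, and most of that was Rab3a, the main Rab of synaptic vesicles. Rab3a (chromosome 8, 70754679 to 70758677) read 300.2, 262 and 246 FPKM in the libraries labelled KO, against 285, 275 and 255 FPKM in WT. The groups overlapped fully, with the highest and the lowest library both labelled KO, and the interval of its log2 fold change ran from -0.23 to 0.19. Rab3c, a second neuronal member, averaged 27.0 ± 2.60 FPKM in the libraries labelled KO and 26.3 ± 1.15 FPKM in WT (SD, n = 3 each). Rab26, which links synaptic vesicles to autophagy, averaged 14.8 ± 0.985 FPKM in the libraries labelled KO and 14.1 ± 0.542 FPKM in WT. Rab3b averaged 10.1 ± 0.906 FPKM in the libraries labelled KO and 10.3 ± 1.45 FPKM in WT. Rab27b and Rab27a, which dock secretory granules, were lower, at 3.25 ± 0.364 and 0.966 ± 0.145 FPKM in the libraries labelled KO, against 3.01 ± 0.293 and 0.951 ± 0.294 FPKM in WT. Rab37 averaged 0.607 FPKM in the libraries labelled KO and 0.588 FPKM in WT.

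Genes of traffic between the endoplasmic reticulum (ER) and the Golgi and within the Golgi held the largest part, 43.3% of the family's FPKM from 16 members. Rab6b, the brain-enriched form of a Rab of Golgi retrograde transport (chromosome 9, 103111787 to 103185276), read 256, 244 and 240.0 FPKM in the libraries labelled KO, against 248, 251 and 238 FPKM in WT. Its relative Rab6a (chromosome 7, 100607410 to 100641268) read 145, 133 and 128 FPKM in the libraries labelled KO, against 128, 137 and 140.2 FPKM in WT. For both genes the groups overlapped, and the highest library was labelled KO. Rab2a, which acts in ER to Golgi and lysosomal traffic (chromosome 4, 8535644 to 8607778), read 135, 129 and 128 FPKM in the libraries labelled KO, against 140.2, 141 and 132 FPKM in WT. Here 2 libraries labelled KO lay below all WT libraries, and the interval of the log2 fold change ran from -0.20 to 0.05.

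The ER exit Rabs gave the next levels of that group. Rab1b (chromosome 19, 5099207 to 5106996) read 85.03, 79.04 and 73.5 FPKM in the libraries labelled KO, against 89.4, 82.3 and 76.6 FPKM in WT. Rab1a (chromosome 11, 20201432 to 20226856) read 51.3, 47.2 and 44.95 FPKM in the libraries labelled KO, against 47.6, 48.4 and 46.3 FPKM in WT. Rab18, found on the ER and on lipid droplets, read 50.1, 45.3 and 42.3 FPKM in the libraries labelled KO, against 47.2, 47.7 and 43.35 FPKM in WT. In all of these replicate 3 was the lowest library of its own group. Rab39b, an X-linked gene that in human is mutated in intellectual disability with parkinsonism, averaged 11.2 ± 0.436 FPKM in the libraries labelled KO and 10.5 ± 0.790 FPKM in WT. The other 9 members of the group had means from 0.0668 FPKM in Rab19 to 17.9 FPKM in Rab33a.

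Early endosome genes were led by the Rab5 trio, which drives fusion of endocytic vesicles. Rab5c (chromosome 11, 100715009 to 100738215) read 62.8, 60.5 and 59.8 FPKM in the libraries labelled KO, against 63.7, 62.4 and 58.2 FPKM in WT. Rab5b (chromosome 10, 128677175 to 128696264) read 34.7, 35.02 and 33.95 FPKM in the libraries labelled KO, against 35.03, 34.7 and 33.15 FPKM in WT. Both genes overlapped between the groups, and Rab5b varied by only 1.06-fold between the highest and the lowest library. Rab5a averaged 18.9 ± 1.22 FPKM in the libraries labelled KO and 19.6 ± 0.298 FPKM in WT. Rab31, Rab21 and Rab22a, also of early endosomes, averaged 18.2, 17.8 and 8.88 FPKM in the libraries labelled KO, against 19.2, 17.9 and 9.30 FPKM in WT. Rab20 was nearly absent, with 4 to 10 reads per library.

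Recycling and plasma membrane genes, 13 in all, gave 15.7% of the family's FPKM. Rab15, a Rab of endocytic recycling that is high in brain (chromosome 12, 76797960 to 76822908), read 66.75, 67.55 and 67.4 FPKM in the libraries labelled KO, against 74.6, 73.65 and 62.02 FPKM in WT. The libraries labelled KO had an SD of 0.430 FPKM and lay between the lowest and the other 2 WT libraries. Rab10, which carries vesicles to the surface (chromosome 12, 3247428 to 3309969), read 41.6, 42.3 and 40.2 FPKM in the libraries labelled KO, against 40.7, 39.7 and 42.1 FPKM in WT. Rab11a and Rab11b, the markers of recycling endosomes, averaged 32.8 ± 2.13 and 33.1 ± 0.992 FPKM in the libraries labelled KO, against 31.6 ± 1.70 and 33.9 ± 0.661 FPKM in WT. Rab35, of fast recycling, had 32.2 to 32.9 FPKM in the libraries labelled KO and 32.6 to 33.7 FPKM in WT, the least variable member tested. Rab4a averaged 24.9 ± 1.06 FPKM in the libraries labelled KO and 26.7 ± 0.612 FPKM in WT, with a log2 fold change of -0.10 (interval -0.21 to 0.02). Rab14 averaged 17.7 ± 0.731 FPKM in the libraries labelled KO and 17.5 ± 0.337 FPKM in WT. Rab8b and Rab8a averaged 9.53 ± 0.661 and 6.155 ± 0.265 FPKM in the libraries labelled KO, against 8.87 ± 0.509 and 6.70 ± 0.605 FPKM in WT. The epithelial Rabs Rab25 and Rab17 had at most 3 and 2 reads in any library.

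Late endosome genes were carried by Rab7, the Rab of late endosomes and lysosomes (chromosome 6, 87999106 to 88045270). Rab7 read 110.0, 102 and 98.4 FPKM in the libraries labelled KO, against 111, 112 and 102 FPKM in WT. Rab12 averaged 31.6 ± 1.69 FPKM in the libraries labelled KO and 33.5 ± 0.627 FPKM in WT, Rab9 13.1 ± 1.39 and 13.8 ± 0.771 FPKM, and Rab24, an autophagy Rab, 7.23 ± 0.358 and 7.59 ± 0.515 FPKM, in each case with the libraries labelled KO first. None of these passed, and 4 of the 5 tested genes of this group had a negative log2 fold change, with a group median of -0.07. Over all genes 52.0% were negative. Negative values were given by 5 of 6 early endosome genes, 7 of 13 ER and Golgi genes, 6 of 11 recycling genes and 2 of 8 secretion genes. Of the Rabs of lysosome-related organelles, Rab29, an activator of the kinase LRRK2, read 2.05, 1.86 and 1.39 FPKM in the libraries labelled KO, against 2.42, 1.84 and 1.62 FPKM in WT, from 73 to 111 reads. Rab32, of melanosomes, averaged 0.709 FPKM in the libraries labelled KO and 0.670 FPKM in WT. For both of these genes the groups overlapped.

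The 9 members below the limit for testing were Rab39, Rab43, Rab20, Rab7b, Rab38, Rab19, Rab25, Rab44 and Rab17. Rab39 and Rab43 had 29 to 69 and 53 to 80 reads. Rab38, a melanosome Rab, had 8, 6 and 8 reads in the libraries labelled KO, against 0, 2 and 4 reads in WT. Rab7b had 25, 27 and 25 reads in the libraries labelled KO, against 12, 22 and 17 reads in WT. The groups did not overlap in FPKM for Rab38 and did for Rab7b, which read 0.159, 0.175 and 0.151 FPKM in the libraries labelled KO, against 0.0831, 0.155 and 0.111 FPKM in WT. Both lay below the limit for testing. Rab44 had at most 3 reads in any library and Rab17 2 reads in all, both in WT replicate 2. For Rab17 a count of 0 allows up to 0.0491 FPKM, the largest value of 3 reads over the libraries, and that limit covers counting error only.

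Between the groups, 0 of the 50 Rab genes tested passed an adjusted p of 0.05, and the smallest adjusted p was 0.999 (limma on log2(FPKM + 0.5), Benjamini-Hochberg over 15694 genes). Over all genes tested 0 passed as well, 0.0%. With voom on the recovered reads 0 members passed, and 2 had an unadjusted p under 0.05, 4.0% beside 3.4% of all genes in that fit. An unadjusted p under 0.05 was given by 3 members, Rab33a and Rab33b lower and Rab9b higher in the libraries labelled KO, which is 6.0% of the members beside 3.82% of all genes tested, 2.19% lower and 1.63% higher. The groups did not overlap for 5 members, 10% of them, beside 8.87% of all genes tested. Of these, 4 were higher in the libraries labelled KO, beside 4.17% of all genes, and 1 was lower, beside 4.7%. Of the 50, 22 had a positive and 28 a negative log2 fold change, the negative ones being 56.0% of the members and 52.0% of all genes. The median log2 fold change was -0.02 for the members and -0.0042 for all genes, and the median size was 0.06 for both. The members' median turned to 0.0060 with TPM scaling, 0.00089 with quantile normalization, 0.01 without KO replicate 3 and 0.01 without WT replicate 1. With TPM scaling the median of all genes turned as well, to 0.017, and stayed above that of the members. The median distance from an estimate to the end of its 95% interval was 0.17 log2 units. For 37 members the whole interval lay within 0.3 log2 units of 0, and for 48 within 0.5, so larger differences are outside the interval for those genes.

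**Figure D2:**
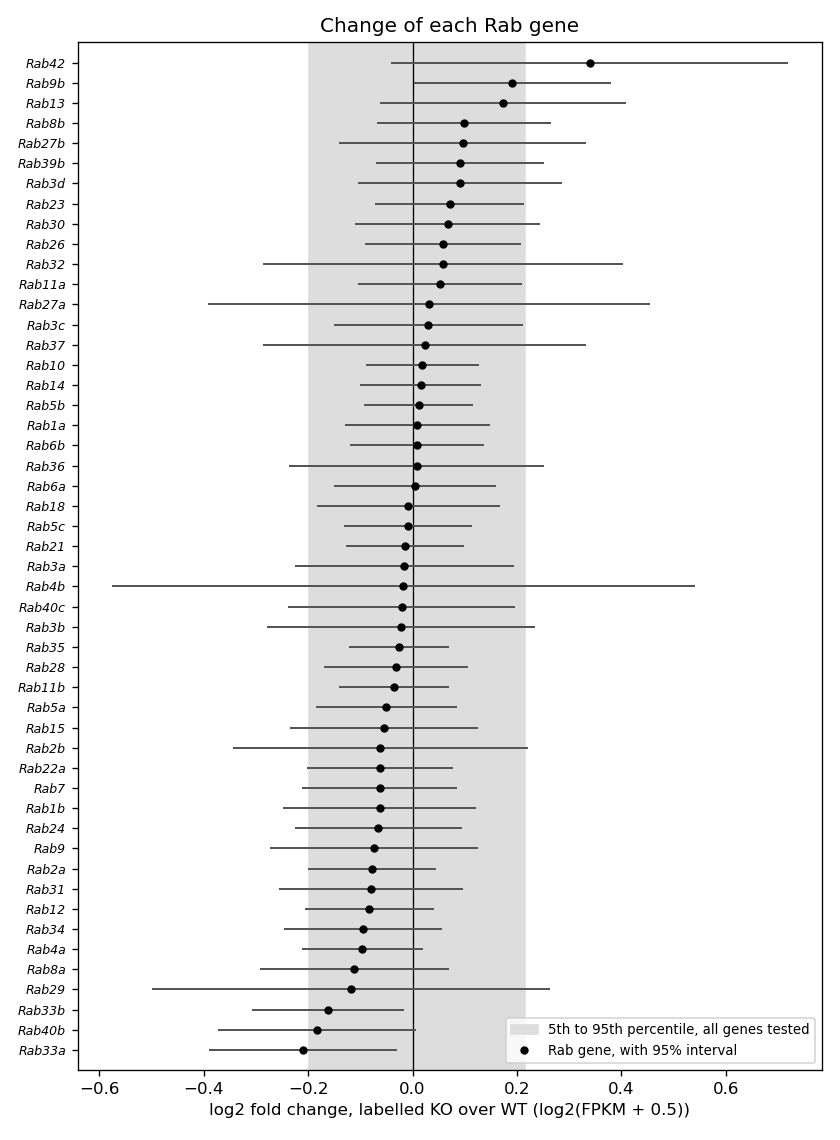
Log2 fold change of the 50 Rab genes tested, libraries labelled KO over WT on log2(FPKM + 0.5), with the 95% interval from limma (n = 3 per group); the grey band spans the 5th to 95th percentile of all 15694 genes, -0.20 to 0.22. Rab42 at 0.34 and Rab33a at -0.21 lie outside the band, and the other 48 genes inside it.

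The count with an unadjusted p under 0.05 depended on single libraries. It was 0 without KO replicate 3, beside 3.35% of all genes, and 0 without WT replicate 1, beside 2.73%. It was 1 without KO replicate 2, 2.0% of the members beside 2.71% of all genes, and 5 without KO replicate 1, 10% beside 5.74%. With both libraries low in striatal genes left out, KO replicate 1 and WT replicate 3, it was 10 of 50, 20.0% of the members beside 13.3% of all genes. All 10 were lower in the libraries labelled KO, while of all genes 8.2% were lower and 5.13% higher. These 10 were Rab3a, Rab2a, Rab7, Rab1b, Rab15, Rab12, Rab31, Rab33a, Rab33b and Rab8a, none of which passed (smallest limma adjusted p = 0.223). Under that choice 36 of 50 log2 fold changes were negative, 72% beside 52.5% of all genes, and the members' median was -0.05. For 30 members the groups of 2 libraries then did not overlap, 60% beside 47.2% of all genes. Of these, 24 were lower in the libraries labelled KO, 48.0% of the members beside 25.5% of all genes. That choice was made after the data were seen. The part that striatal tissue plays in these differences was not tested.

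Rab33a and Rab33b, Golgi Rabs of which Rab33b binds the autophagy protein Atg16l1, had the smallest p among the members. Rab33a (chromosome X, 48519285 to 48530232) read 18.16, 16.05 and 15.5 FPKM in the libraries labelled KO, against 19.9, 19.92 and 17.86 FPKM in WT. WT replicate 3 lay just below KO replicate 1, and both of these are libraries low in striatal genes. Its log2 fold change was -0.21 (SE 0.08), with an interval from -0.39 to -0.03 (limma unadjusted p = 0.0281, adjusted p = 0.999). Rab33b (chromosome 3, 51483920 to 51496232) read 6.47, 5.81 and 6.202 FPKM in the libraries labelled KO, against 6.87, 6.74 and 7.25 FPKM in WT, all 3 below all WT libraries. Its log2 fold change was -0.16 with an interval from -0.31 to -0.02 (limma unadjusted p = 0.0332, adjusted p = 0.999). Rab33a shared no 50-base word of its transcripts with any other gene. The exons of Rab33b share 661 bases with the unnamed locus Gm38160 on the other strand, which had at most 6 reads in any library.

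**Figure D3:**
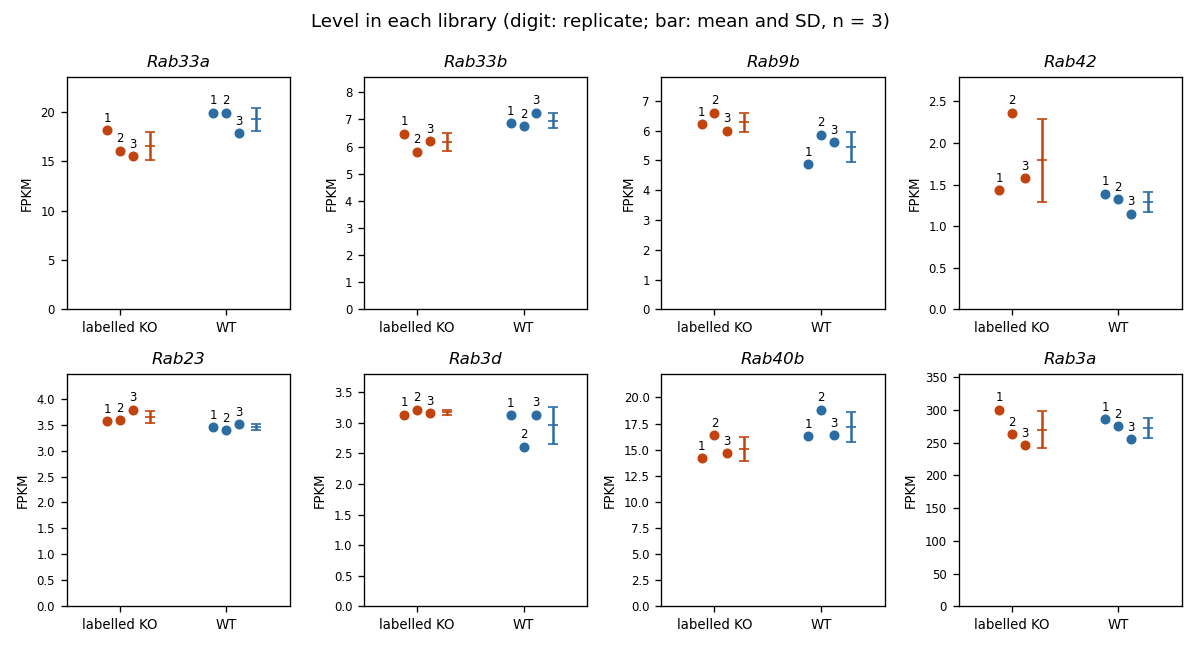
FPKM of 8 Rab genes in each library on linear axes from 0, with the replicate number over each point and the mean and SD (n = 3) beside it, libraries labelled KO left of WT. Rab33b lies lower and Rab9b, Rab42, Rab23 and Rab3d higher in all 3 libraries labelled KO than in any WT library, while Rab33a, Rab40b and Rab3a overlap.

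Rab9b, an X-linked relative of the late endosome Rab9 (chromosome X, 136858147 to 136868755), read 6.23, 6.61 and 5.998 FPKM in the libraries labelled KO, against 4.87, 5.86 and 5.61 FPKM in WT. All 3 libraries labelled KO lay above all WT libraries, with a log2 fold change of 0.19 and an interval from 0.0024 to 0.38 (limma unadjusted p = 0.0478, adjusted p = 0.999). Rab42 (chromosome 4, 132302197 to 132303385) read 1.43, 2.36 and 1.58 FPKM in the libraries labelled KO, against 1.39, 1.33 and 1.15 FPKM in WT, from 29 to 60 reads. KO replicate 2 alone stood far above the rest. The log2 fold change of Rab42 was 0.34, the largest of the family, with an interval from -0.04 to 0.72, and it was 0.17 without KO replicate 2.

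Rab23, which restrains Hedgehog signalling (chromosome 1, 33719887 to 33742564), read 3.57, 3.59 and 3.79 FPKM in the libraries labelled KO, against 3.45, 3.39 and 3.51 FPKM in WT. Rab3d, the Rab3 form best known from secretory cells (chromosome 9, 21907491 to 21918192), read 3.14, 3.22 and 3.16 FPKM in the libraries labelled KO, against 3.13, 2.61 and 3.13 FPKM in WT. The groups of both genes did not overlap, but by a narrow margin, with intervals of the log2 fold change from -0.07 to 0.21 for Rab23 and from -0.11 to 0.29 for Rab3d. Without WT replicate 2 the log2 fold change of Rab3d was 0.02. Rab28, the other gene of the cilium group, read 11.4, 11.1 and 11.7 FPKM in the libraries labelled KO, against 12.0, 12.1 and 10.9 FPKM in WT, with overlapping groups.

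Rab40b, a Rab with a SOCS box that recruits a ubiquitin ligase (chromosome 11, 121356125 to 121388251), read 14.2, 16.4 and 14.6 FPKM in the libraries labelled KO, against 16.3, 18.8 and 16.4 FPKM in WT. Its groups overlapped by KO replicate 2 and WT replicate 1, and its log2 fold change was -0.18 (interval -0.37 to 0.0074). Its relative Rab40c averaged 13.9 ± 1.59 FPKM in the libraries labelled KO and 14.1 ± 1.00 FPKM in WT.

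The shares of close relatives within the Rab3, Rab6 and Rab1 subfamilies were as follows. Rab3a made up 88.2%, 85.7% and 87.0% of the Rab3 FPKM in the libraries labelled KO, against 87.4%, 87.4% and 87.1% in WT. Rab6b made up 63.85%, 64.7% and 65.2% of the Rab6 FPKM in the libraries labelled KO, against 65.95%, 64.7% and 62.9% in WT. Rab1b held 62.05% to 62.6% of the Rab1 FPKM in the libraries labelled KO and 62.3% to 65.2% in WT. In each of these the groups overlapped. Rab5c, Rab5b and Rab5a stood at 53.3%, 30.2% and 16.5% on average in the libraries labelled KO, and at 53.3%, 29.75% and 16.98% in WT. The 2 Rab11 genes were nearly even, with Rab11a at 49.75% ± 1.65 in the libraries labelled KO and 48.2% ± 0.908 in WT.

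Of the 14 subfamilies divided in this way, the groups stood apart for the Rab9 and the Rab7 pairs, by narrow margins. Of all genes tested, 8.87% stood apart by their own FPKM, and shares within other gene families were not computed. Rab9b made up 29.9%, 33.7% and 33.7% of the Rab9 FPKM in the libraries labelled KO, against 26.6%, 28.5% and 29.7% in WT. Rab7b, a minor relative of Rab7, held 0.145%, 0.171% and 0.153% in the libraries labelled KO, against 0.0750%, 0.139% and 0.108% in WT. These shares of Rab7b rest on 12 to 27 reads per library, and its FPKM overlapped between the groups. Rab8b made up 60.5%, 61.8% and 59.95% of the Rab8 FPKM in the libraries labelled KO, against 55.0%, 55.4% and 60.6% in WT, where WT replicate 3 overlapped. Rab8a and Rab8b both carry vesicles to the plasma membrane and the cilium. These shares are descriptions and were given no test.

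**Figure D4:**
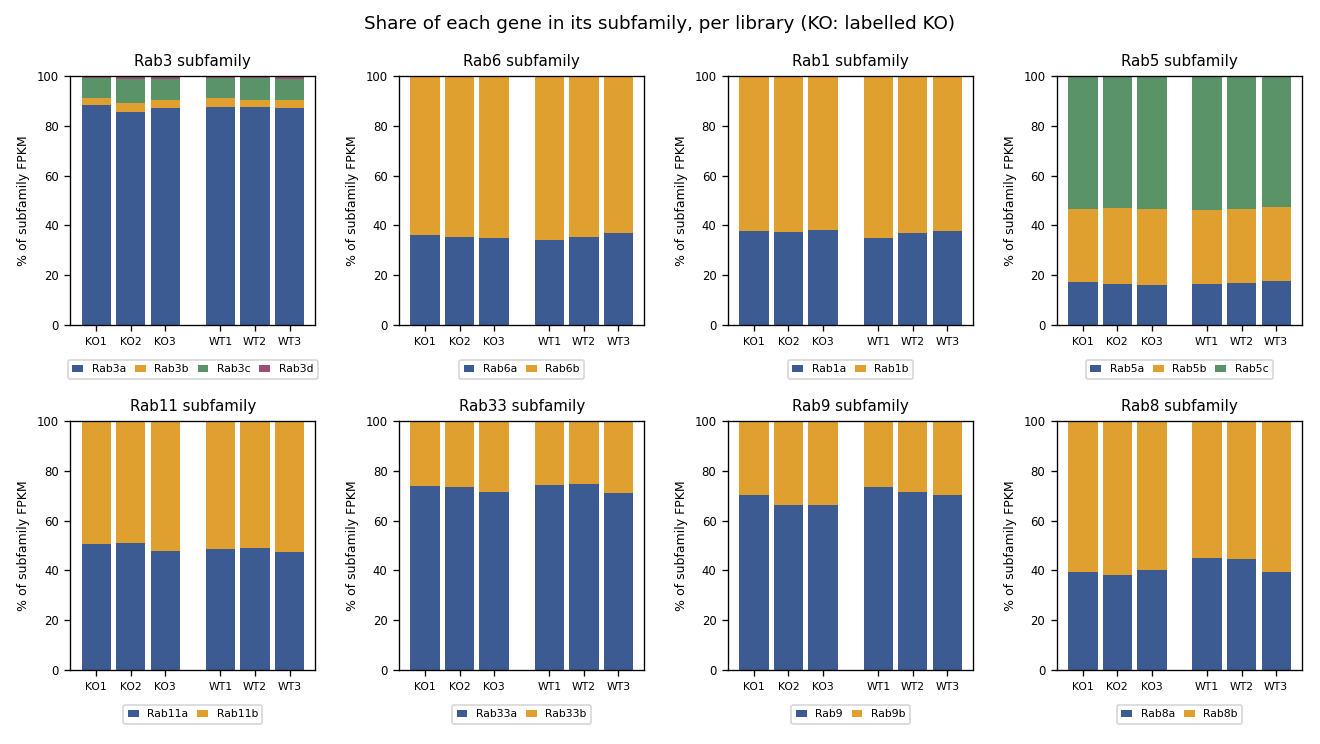
Percent of the summed FPKM of 8 Rab subfamilies held by each gene, stacked to 100%, with a bar per library and the 3 libraries labelled KO left of the 3 WT libraries. Rab3a holds 85.7% to 88.2% of the Rab3 subfamily in every library, and the Rab9b part of the Rab9 pair is larger in each library labelled KO (29.9% to 33.7%) than in any WT library (26.6% to 29.7%).

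Some members share sequence with other genes, which limits what their values can show. Rab11b (chromosome 17, 33742484 to 33760530) has a processed copy, Rab11b-ps2 (chromosome 19, 7398421 to 7399077), whose 654 bases differ from the Rab11b transcript at 1 position, with 502 identical bases in a row. The 60 coding bases that hold the difference, 94 to 153 counted from the first coding base of Rab11b, are shown with the differing base in capitals.
Rab11b: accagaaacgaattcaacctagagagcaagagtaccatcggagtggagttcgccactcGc
Rab11b-ps2: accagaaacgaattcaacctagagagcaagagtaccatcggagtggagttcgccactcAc
The table lists Rab11b-ps2 at 29.0, 27.4 and 27.9 FPKM in the libraries labelled KO, against 22.95, 30.3 and 25.1 FPKM in WT. Per length this is near the 32.1 to 34.0 FPKM of Rab11b in the libraries labelled KO and the 33.2 to 34.4 FPKM in WT. In reads it took 8.38%, 8.43% and 8.31% of the pair in the libraries labelled KO, against 6.69%, 8.70% and 7.51% in WT. Both rows together had 7695, 7133 and 7906 reads in the libraries labelled KO, against 7036, 7025 and 7267 reads in WT.

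Rab7 has a similar copy, Rab7-ps1 (chromosome 9, 54824661 to 54825282), 98.4% identical over 622 aligned bases. The 60 coding bases from 32 to 91 hold 4 of the 10 differences, in capitals below.
Rab7: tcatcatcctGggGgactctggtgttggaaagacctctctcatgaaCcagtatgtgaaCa
Rab7-ps1: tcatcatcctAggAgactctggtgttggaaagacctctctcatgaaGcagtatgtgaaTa
Rab7-ps1 was listed at 12.2, 9.64 and 9.38 FPKM in the libraries labelled KO, against 8.90, 10.9 and 7.80 FPKM in WT. It took 2.57%, 2.20% and 2.22% of the pair's reads in the libraries labelled KO, against 1.88%, 2.27% and 1.79% in WT. How reads that match both rows were assigned is not given in the sources used here, so the division within each pair is uncertain.

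Overlapping gene models touch other members. Rab24 shares 62.4% of its exon bases with Prelid1 on the other strand, which averaged 40.2 FPKM in the libraries labelled KO and 40.0 FPKM in WT, above Rab24. Rab6a shares 19.0% of its exon bases with Mrpl48 on the other strand. Rab43 shares 75.4% with Gm45140 and Rab4b 65.0% with Gm21983 on the same strand, and Gm21983 is listed at 0 in all 6 libraries. Rab4b read 0.329, 0.502 and 0.765 FPKM in the libraries labelled KO, against 0.617, 0.281 and 0.750 FPKM in WT, the widest scatter of the members tested. Of the 59 members, 29 shared no 50-base word of their transcripts with another gene, and 15 shared more than 5% of them.

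Rab13, known from epithelial junctions, lies head to head with the ribosomal protein gene Rps27 on chromosome 3. The 43 bases between the 2 gene models, chr3:90213652-90213694 (GRCm38.p6 from RefSeq, plus strand), are all that separates them.
Rab13: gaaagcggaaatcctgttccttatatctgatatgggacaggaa
Rab13 (90213695 to 90226385) read 1.77, 1.63 and 1.97 FPKM in the libraries labelled KO, against 1.68, 1.52 and 1.39 FPKM in WT. Its log2 fold change was 0.17 with an interval from -0.06 to 0.41. Rps27 (90212522 to 90213651) read 74.05, 66.96 and 56.6 FPKM in the libraries labelled KO, against 58.1, 25.6 and 20.96 FPKM in WT. In both genes 2 WT libraries lay below all libraries labelled KO, and WT replicate 1 did not, and neither passed (limma adjusted p = 0.999 for each).

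The genes that load, switch and read Rabs were measured from 5 lists of 172 names, of which 169 were in the table and 154 were tested. In limma 0 of the 154 passed in either direction, beside 0.0% of all genes. An unadjusted p under 0.05 was given by 2 of them, 1.30%, beside 3.82% of all genes, and the groups did not overlap for 9, 5.84% beside 8.87% of all genes. Among GDI, escort and prenylation genes (15 tested, median log2 fold change -0.0097), Rabac1, an acceptor of prenylated Rabs, averaged 87.0 ± 8.52 FPKM in the libraries labelled KO and 93.9 ± 9.13 FPKM in WT, and Chml, a Rab escort protein, 2.28 ± 0.207 and 2.08 ± 0.135 FPKM.

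Among exchange factors (48 tested, median -0.0011), Dennd5a averaged 36.7 ± 0.302 FPKM in the libraries labelled KO and 36.7 ± 0.139 FPKM in WT. Sbf1 averaged 36.1 ± 0.746 FPKM in the libraries labelled KO and 37.1 ± 0.700 FPKM in WT. Trappc6b, a subunit of the TRAPP complex that activates Rab1, read 24.9, 23.2 and 24.8 FPKM in the libraries labelled KO, against 24.9, 27.4 and 25.6 FPKM in WT. Among GTPase-activating proteins (41 tested, median -0.0081), Tbc1d9b averaged 45.3 ± 1.36 FPKM in the libraries labelled KO and 47.2 ± 1.54 FPKM in WT, and Tbc1d9 24.5 ± 1.502 and 24.6 ± 0.412 FPKM. Tbc1d10c, a low gene at 0.434 ± 0.102 FPKM in the libraries labelled KO and 0.750 ± 0.190 FPKM in WT, gave a log2 fold change of -0.41 (limma unadjusted p = 0.0387, adjusted p = 0.999).

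Among effectors (45 tested, median -0.01), Rph3a, the rabphilin that binds Rab3 on synaptic vesicles, read 157, 139 and 148 FPKM in the libraries labelled KO, against 137, 150.3 and 134 FPKM in WT. Rab11fip4 averaged 54.9 ± 1.84 FPKM in the libraries labelled KO and 56.4 ± 0.508 FPKM in WT. Bicd2, the adaptor that couples Rab6 vesicles to dynein, read 15.3, 16.3 and 18.1 FPKM in the libraries labelled KO, against 14.6, 14.1 and 14.2 FPKM in WT. All 3 lay above all WT libraries, with a log2 fold change of 0.20 and an interval from 0.04 to 0.36 (limma unadjusted p = 0.0202, adjusted p = 0.999). Of the 5 Rab kinases and phosphatases tested (median -0.05), Pink1, a mitochondrial kinase upstream of Rab phosphorylation, averaged 162 ± 19.6 FPKM in the libraries labelled KO and 182 ± 17.1 FPKM in WT. Ppm1h, a phosphatase that reverses LRRK2 phosphorylation of Rabs, averaged 10.2 ± 0.829 FPKM in the libraries labelled KO and 9.81 ± 0.794 FPKM in WT.

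**Figure D5:**
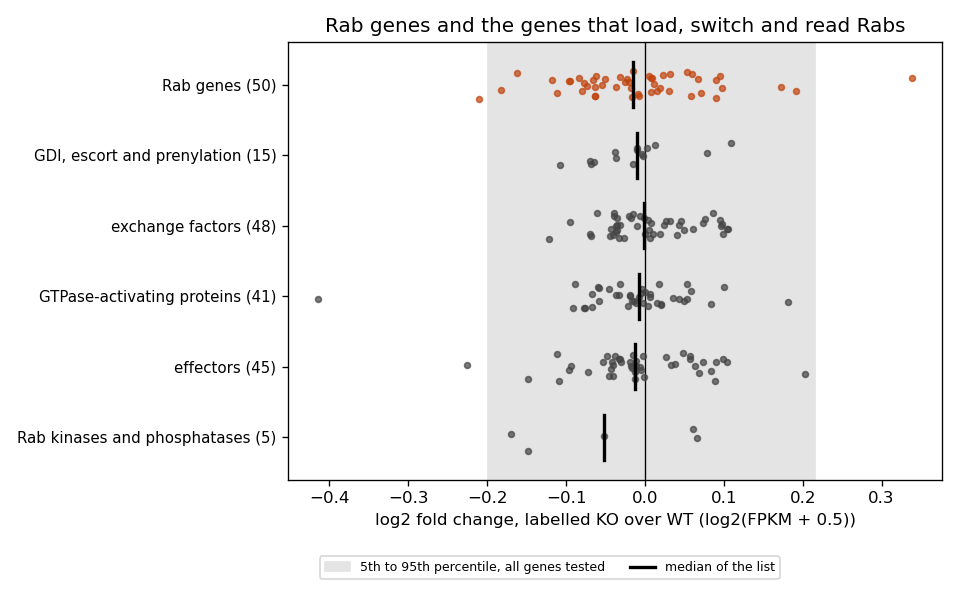
Log2 fold change, libraries labelled KO over WT, of 50 Rab genes and of 154 genes in 5 lists of Rab regulators and effectors (1 point per gene; bar, median of the list; grey band, 5th to 95th percentile of all genes tested). The list medians lie between -0.05 and -0.0011, and Rab42 at 0.34 and Tbc1d10c at -0.41 lie farthest from 0.

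The highest and lowest values of the abundant Rabs fell in certain libraries of both groups. Of the 12 most abundant members, 6 were lowest in KO replicate 3 and 4 in WT replicate 3, while 5 were highest in KO replicate 1 and 4 in WT replicate 1. The summed FPKM of all genes was 274010, 264066 and 256956 in the libraries labelled KO, against 273057, 274405 and 259605 in WT, and so had its lowest values in the same replicate 3 of each group. The further factor per library named above was also lowest in KO replicate 3 and WT replicate 3, at 0.979 and 0.9861, and highest in WT replicate 1, at 1.0119. With each library scaled to the same sum, the groups did not overlap for 9 members, 18.0% beside 8.62% of all genes, and for 5 with the values as deposited, 10% beside 8.87%. With libraries scaled by their median of ratios, the groups did not overlap for 4, 8.0% beside 8.85%. The median tested member varied by 1.202-fold between its highest and lowest library, and 5 varied by more than 1.5-fold.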

How the data were processed

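RNA of cerebral cortex was sequenced from 3 libraries labelled Fam69c KO and 3 labelled WT. Trizol extraction and a TruSeq RNA kit are recorded per the labels' protocols, and Bowtie and mm10 per the submitters' processing notes. For the counter, strand handling and annotation release, the step is not given in the sources used here. The authors deposited FPKM per gene. Multiplied by gene length and divided by the value of 1 read in that library, found from the values, 100.0% of those above 0 came within 0.001 of a whole number, so that reads could be recovered.

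From the deposited FPKM, genes with a mean of at least 0.5 entered, 15694 in all, as log2(FPKM + 0.5), so fold changes understate low genes. Limma 3.58.1 in R 4.3.3 compared the groups with a variance trend and no block, two-sided, with Benjamini-Hochberg adjustment over all genes. The test was checked on simulated data with independent noise and changes larger than any seen in a Rab gene. Its sensitivity to smaller changes was not checked. Values with ± are mean and SD. Intervals and read limits cover counting error or the spread between these libraries only.

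Of the table's rows, 98.3% have the same position as in GENCODE M21, from which exons and transcripts were read. Of the 59 members, 57 have the same position. Overlaps and shared words refer to that release, whose exons can differ from the deposited model. Rab18 has 6850 exon bases there, against a deposited length of 2257. Sequences were aligned with Biopython 1.88, identity counting all aligned columns. Figures were drawn with matplotlib 3.10.9.

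Named in full were the 12 most abundant members, the most abundant of each role, and members with an unadjusted p under 0.05 or groups that do not overlap. Other members are given by mean, in part with SD, by range or by reads, and of each regulator list the 2 most abundant genes and that with the smallest p. Of the genes these rules select, 1 of a regulator list is not reported here, and ends of coding sequences are shown for a selection of members. Rps27, Prelid1, Mrpl48, both pseudogenes and the per-library values of Rab4b, Rab7b, Rab13 and Rab38 were chosen after values were seen. The members and lists were chosen with earlier results of these data known. Each member was assigned a single role, though some act in several places, and the role shares and counts depend on that choice.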

Additional observations from a re-analysis of the deposited data

How the results depend on the processing

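Under 20 other settings (other pseudocounts, filters, scalings, variance models, sample weights, protein-coding genes alone, voom on recovered reads, a replicate block, and libraries left out) 0 Rab genes passed an adjusted p of 0.05 in limma. Over all genes 1 passed with protein-coding genes alone and 1 with both libraries low in striatal genes left out, and 0 elsewhere. The count of Rab genes with an unadjusted p under 0.05, 3 as reported, ran from 0 to 5 when single libraries were left out (2.71% to 6.52% of all genes), and was 5 with sample weights (10% beside 9.05% of all genes) and 10 without both libraries low in striatal genes (20.0% beside 13.3%). The count whose groups do not overlap, 5 as reported, ran from 8 to 17 when single libraries were left out, where groups are smaller (15% to 24.2% of all genes), and was 9 with TPM scaling (18.0% beside 8.62%) and 30 without both libraries (60% beside 47.2%). It was 4 with libraries scaled by their median of ratios (8.0% beside 8.85%). Of 420 log2 fold changes of 21 named members under these settings, 387 kept their direction, and 12 members kept it under every setting run. With TPM scaling Rab3a, Rab5c and Rab18 were at 0.0056, 0.013 and 0.014, with quantile normalization Rab3a, Rab5c and Rab18 were at 0.019, 0.031 and 0.032, and with voom Rab5c and Rab18 were at 0.0055 and 0.0060. With sample weights Rab6b and Rab1a were at -0.013 and -0.012. Without both libraries low in striatal genes Rab6b, Rab6a, Rab1a and Rab5b were at -0.041, -0.017, -0.060 and -0.016. When single libraries were left out, the log2 fold changes ran for Rab3a from -0.097 to 0.048, Rab5c from -0.047 to 0.018, Rab18 from -0.072 to 0.048, Rab6b from -0.019 to 0.028, Rab6a from -0.045 to 0.044, Rab1a from -0.042 to 0.052, Rab5b from -0.012 to 0.027, Rab10 from -0.0018 to 0.041 and Rab29 from -0.22 to 0.012. With TPM scaling, which rescales every gene of a library alike, the median over all genes also turned, from -0.0042 to 0.017. The cause of the turns was not tested.

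Replicate numbers are shared between the groups but were not found to pair the libraries: deviations from the group means correlated at 0.082, 0.013 and 0.21 for numbers 1, 2 and 3, and KO replicate 1 correlated best with WT replicate 2. With a replicate block 4 Rab genes had an unadjusted p under 0.05, 8.0% beside 5.33% of all genes, and 0 passed. The 9 members under 0.5 FPKM were left out of the main test by a limit on FPKM, not on reads. Among them Rab39 and Rab43 had 29 to 69 and 53 to 80 reads, while the tested Rab4b had 17 to 54. Depth limits the others, which had at most 27 reads in any library.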
